A study of Mus musculus with 52 samples.

Results

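Apoe and 9 other genes that make, load, process or take up lipoproteins were followed through 25 mouse brain and 27 astrocyte RNA-seq libraries. The members were chosen by gene name: the apolipoprotein genes Apoe, Clu, Apod and Apoc1, the transporter genes Abca1 and Abcg1, the enzyme genes Lpl and Lcat, and the receptor genes Lrp1 and Vldlr. All 10 were found in each of the 4 tables, of 55487 genes in the first kainate cohort, 55487 in the CNO set, 34042 in the second cohort and 53700 in the astrocytes, and all 10 passed the filter on low values in every table. In the brain, cholesterol is made locally, since plasma lipoproteins do not cross the blood-brain barrier. Astrocytes release apolipoprotein E, ABC transporters load it with cholesterol and phospholipid, enzymes remodel the particle, and receptors on the cell surface take it up into neurons and glia. Liver X receptors, nuclear receptors that sense oxysterols, switch on Apoe, Abca1, Abcg1 and Lpl.

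All mice and cells were C57BL/6. Apoe knockout astrocytes were given neuronal conditional medium (called neuronal medium here), oleic acid or palmitic acid, or were left untreated, and wild-type astrocytes were given medium of Apoe knockout neurons, neuronal medium, oleic acid or palmitic acid, or were left untreated, with 3 libraries in each of the 9 groups. Brain came from a kainate (KA) model of temporal lobe epilepsy in a first cohort (3 KA and 3 untreated libraries), from a clozapine N-oxide (CNO) model of epilepsy (3 CNO and 3 untreated), and from a second KA cohort (3 Apoe knockout with KA, 3 labelled A2aR knockdown with KA, 4 KA and 3 untreated). The sources used here do not give the knockout allele, the brain region, ages, doses, treatment times or the receptor through which CNO acted. Titles of the neuronal medium libraries carry KA and those of knockout untreated 3 and knockout palmitic acid 3 carry mix, neither of which is explained, and untreated brain of the KA cohorts also carries the KA model as its tissue label. Nothing in the labels ties each library to its own animal or culture, and the p-values therefore reflect library-to-library spread that can be technical.

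The promoters of Abca1, Lcat and Apoe are shown, the genes of the loading transporter, the cholesterol-esterifying enzyme and the particle protein. With oleic acid on wild-type astrocytes, described further on, Lcat rose while Abca1 and Apoe fell. With palmitic acid all of them fell. Each promoter is the 250 bases before the RefSeq gene start on GRCm38.p6, read 5′ to 3′ on the gene's minus strand. Capitals mark the stretch closest to the repeat that liver X receptors bind, AGGTCA repeated in the same direction with 4 bases between the copies, searched on both strands.
Abca1 promoter, chr4:53159896-53160145: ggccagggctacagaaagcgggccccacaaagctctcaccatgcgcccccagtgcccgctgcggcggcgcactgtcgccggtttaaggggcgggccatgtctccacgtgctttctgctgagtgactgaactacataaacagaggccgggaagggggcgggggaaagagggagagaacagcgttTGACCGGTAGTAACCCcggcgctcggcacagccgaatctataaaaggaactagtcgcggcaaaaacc
Lcat promoter, chr8:105943403-105943652: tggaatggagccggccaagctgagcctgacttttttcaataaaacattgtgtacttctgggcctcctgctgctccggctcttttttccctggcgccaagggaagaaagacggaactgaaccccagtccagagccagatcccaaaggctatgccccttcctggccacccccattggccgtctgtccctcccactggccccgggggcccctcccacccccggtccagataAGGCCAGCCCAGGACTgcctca
Apoe promoter, chr7:19699189-19699438: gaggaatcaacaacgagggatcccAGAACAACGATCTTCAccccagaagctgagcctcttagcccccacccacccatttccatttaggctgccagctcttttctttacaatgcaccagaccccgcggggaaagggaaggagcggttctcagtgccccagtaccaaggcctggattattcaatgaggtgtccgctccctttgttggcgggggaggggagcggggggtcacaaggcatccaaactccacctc

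The closest stretch in Abca1 lay 67 bases before the start and differed from the repeat at 3 of its 12 letters, as did the one 22 bases before the start in Lcat. Among 32851 promoters of the same length, 18.5% held a stretch at least as close. In Apoe the closest stretch differed at 5 letters, and 99.5% of promoters held one at least as close. The Abca1 promoter also held TATAAA, found on the gene strand in 7.59% of promoters, and CACGTG, found in 6.02%. Promoters of the other two RefSeq starts of Apoe, not shown, differed from the repeat at 4 letters, where 70.6% of promoters held a stretch at least as close, and 1 of these Apoe promoters held TATAAA. These letter matches are descriptions. Apoe spans chr7:19696109-19699188 and Apoc1 chr7:19689481-19692660 on mm10 by the positions in the authors' table, both on the minus strand and 3448 bases apart.

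The second cohort held 68760648 to 76643829 gene counts per library, while the other tables hold TPM (transcripts scaled to a fixed library sum) and their depth is unknown. A level is given as group mean ± SD in TPM. In the TPM tables a log2 change ± SE is of log2(TPM + 1), a scale that compresses low genes and so understates their change, and its adjusted p is limma's over all genes tested, while the second cohort was tested on counts with edgeR. There the ± of a log2 change was back-calculated from edgeR's F statistic and is not a fitted SE. The 12 astrocyte markers summed to 652 to 673 TPM in untreated knockout and 2578 to 2879 TPM in untreated wild-type astrocytes, below the sums of 9 mural cell and fibroblast markers, at 6231 to 6341 TPM in knockout and 7573 to 8279.9 TPM in wild-type libraries. The 6 endothelial markers summed to 10.2 to 17.9 TPM in untreated knockout and 8.18 to 8.86 TPM in untreated wild-type astrocytes. Of these 6, Cldn5 was listed at 0 in every library of 8 of the 9 groups. In the second cohort, KA libraries had 0.0255 to 0.272 TPM of Xist, made from the inactive X chromosome, and 25.9 to 30.4 TPM of the Y-linked Ddx3y, against 122 to 145 TPM of Xist and 0.128 to 0.404 TPM of Ddx3y in untreated libraries, so KA and sex cannot be told apart there. Astrocyte groups also differed in these genes. Ddx3y had 31.3 to 33.5 TPM in untreated knockout and 14.9 to 19.1 TPM in untreated wild-type cells. It had 0.52 to 1.35 TPM in wild-type oleic acid and 3.22 to 4.49 TPM in wild-type palmitic acid. Knockout cells had 22.9 to 30.97 TPM of it with neuronal medium, 14.25 to 15.2 with oleic acid and 1.86 to 15.7 with palmitic acid. Xist had 2.79 to 3.81 TPM in untreated knockout and 30.7 to 36.8 TPM in untreated wild-type cells. Knockout cells had 7.12 to 8.55 TPM of Xist with neuronal medium, 2.12 to 2.72 with oleic acid and 0 to 0.05 with palmitic acid. Wild-type cells had 6.57 to 15.03 TPM of Xist with oleic acid and 15.5 to 21 with palmitic acid. In the first cohort, untreated 3 stood apart with 9.01% of its TPM from mitochondrial genes and 1.74 TPM of Abca1. In bulk RNA, fewer cells of a type and less RNA per cell cannot be told apart, which touches every change that follows. The part of the sex-linked differences in the astrocyte changes was not tested.

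Apoe was the most abundant of the 10 genes in every group with an intact gene. In wild-type astrocytes it averaged 4682 ± 405 TPM untreated, 4588 ± 431 with neuronal medium, 3930.2 ± 234 with medium of Apoe knockout neurons, 3235 ± 189 with oleic acid and 2303 ± 138 with palmitic acid (SD, n = 3 each). In that order, untreated and neuronal medium libraries overlapped, neuronal medium and knockout neuron medium libraries overlapped, and the steps down to oleic acid and to palmitic acid had no overlap. Apoe made up 82.1% ± 0.737 of the summed TPM of the 4 apolipoprotein genes in untreated wild-type cells. Clu, the extracellular chaperone also called apolipoprotein J, followed at 978 ± 48.4 TPM, Lrp1, the large endocytic receptor, at 359 ± 9.27 TPM and Abca1, which loads lipid onto apolipoproteins, at 124 ± 5.57 TPM. Apoc1, a small apolipoprotein that interferes with receptor uptake, and Abcg1, an exporter of cholesterol to particles, were the lowest at 3.6 ± 0.917 and 0.907 ± 0.0945 TPM.

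In untreated brain, levels were compared within each table, because the tables were processed separately. Apoe averaged 4602 ± 1380.5 TPM in the first cohort, 4421 ± 291 TPM in the CNO set and 1174 ± 139.6 TPM in the second cohort. Within each of these untreated groups Apoe, Clu, Apod and Lrp1 held the top 4 places by mean in that order. In the second cohort, Apoe and Clu libraries overlapped, with 1135, 1329 and 1058 TPM of Apoe and 984, 866 and 1305 TPM of Clu. Apod, a lipocalin that carries small lipids, came after Apoe and Clu in untreated brain at 472 ± 35.4 TPM in the CNO set, but was below Lpl in untreated wild-type astrocytes at 33.8 ± 2.004 TPM. Abcg1 had 24.003 ± 2.55 TPM in untreated brain of the CNO set, and Vldlr, a receptor for lipoproteins and reelin, 20.1 ± 3.45 TPM.

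The targeted gene was low but not at 0 in every library labelled Apoe knockout. Knockout brain with KA had 58.6, 29.7 and 31.2 TPM of Apoe (2304, 1082 and 1235 counts), against 926, 829.7, 1383 and 1467 TPM in KA brain. Knockout 1 held nearly all of that spread, at 5.09% of the KA mean, while the other two libraries were at 2.58% and 2.71%. The source of these reads was not tested.

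In knockout astrocytes the Apoe RNA left differed between treatments. It was 113, 113 and 118 TPM with neuronal medium, 68.2, 72.9 and 71.4 TPM with oleic acid and 7.53, 7.66 and 5.36 TPM with palmitic acid, against 40.4, 47.1 and 43.5 TPM in untreated knockout cells. None of these 4 groups overlapped with another. Set against the mean of wild-type cells under the same treatment, the share left was 2.496% ± 0.0679 with neuronal medium, 2.19% ± 0.0732 with oleic acid, 0.297% ± 0.0561 with palmitic acid and 0.933% ± 0.0711 untreated (SD, n = 3 each). The plot of Apoe RNA left shows the knockout astrocytes as 4 tight groups and the knockout brain libraries as a pair with knockout 1 above it.

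**Figure D1:**
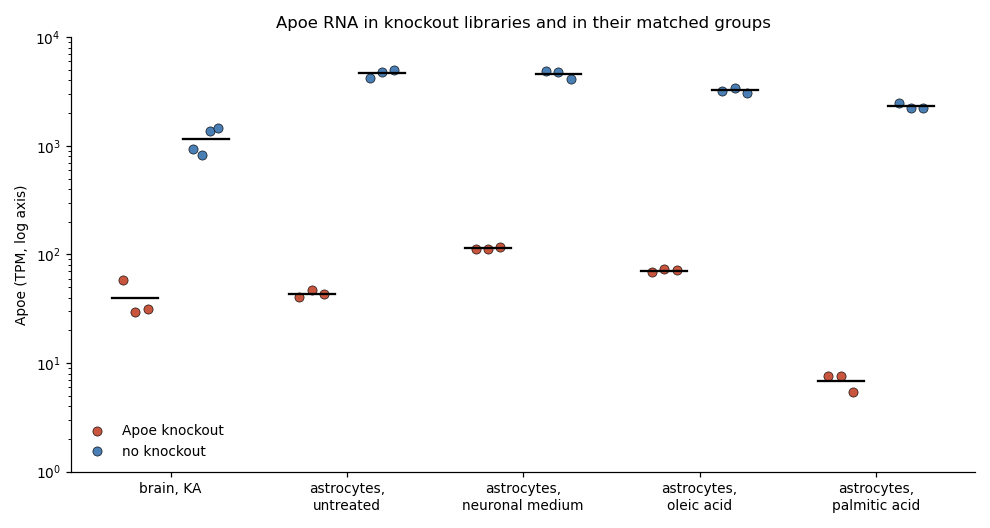
Apoe RNA in libraries labelled Apoe knockout, in TPM on a log axis, beside the matched groups with an intact gene. Each point is a library and lines are group means. Knockout astrocytes ranged from 5.36 TPM with palmitic acid to 118 TPM with neuronal medium, and each knockout group lay below every library of its matched group.

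In untreated knockout astrocytes, against untreated wild-type astrocytes, 2 members rose and 7 fell, with Abcg1 not past the threshold. 44.9% of 16161 genes passed in this comparison, 3855 higher and 3403 lower, and the libraries of all 10 members did not overlap between the genotypes, as for 61.6% of all genes. The median log2 change was -1.46 over the members and 0.05 over all genes tested. Besides Apoe, which the knockout targets, the fall took in particle proteins, the loading transporter and both enzymes, while both receptors rose.

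Apoe averaged 43.7 ± 3.33 TPM in knockout and 4682 ± 405 TPM in wild-type cells, a log2 change of -6.71 ± 0.10 (limma, adjusted p = 5.75e-22). Clu had 441, 430.2 and 426 TPM in knockout and 924, 1016 and 996 TPM in wild-type libraries. All knockout libraries lay below all wild-type libraries, a log2 change of -1.17 ± 0.06 (limma, adjusted p = 1.04e-13). Apod fell further, with 4.71, 4.5 and 3.28 TPM in knockout and 33.4, 35.97 and 32.03 TPM in wild-type libraries, and a log2 change of -2.76 ± 0.11 (limma, adjusted p = 1.05e-14). The neighbouring gene Apoc1 had 0.37, 0.84 and 0.41 TPM in knockout and 2.72, 3.53 and 4.55 TPM in wild-type libraries. Its values were low in both genotypes and did not overlap, with a log2 change of -1.57 ± 0.43 (limma, adjusted p = 0.00486) that became -2.57 with a pseudocount of 0.1.

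Abca1 had 44.9, 45.2 and 47.4 TPM in knockout and 125, 118 and 129 TPM in wild-type libraries, a log2 change of -1.41 ± 0.19 (limma, adjusted p = 2.39e-06). The libraries of each genotype lay close together and far from the other genotype. Lpl, lipoprotein lipase, which frees fatty acids from triglyceride, had 19.8, 17.2 and 19.2 TPM in knockout and 69.8, 66.8 and 72.8 TPM in wild-type libraries, a log2 change of -1.84 ± 0.14 (limma, adjusted p = 2.35e-10). Lcat, which esterifies cholesterol on the particle, had 8.91, 9.35 and 8.34 TPM in knockout and 27.9, 28.6 and 24.9 TPM in wild-type libraries, a log2 change of -1.51 ± 0.18 (limma, adjusted p = 5.73e-07). Both enzymes were thus lower in every knockout library. Vldlr went the other way, with 24.01, 23.8 and 23.9 TPM in knockout and 6.43, 6.11 and 8.36 TPM in wild-type libraries, a log2 change of 1.65 ± 0.15 (limma, adjusted p = 6.57e-09). Lrp1 was 463 to 478 TPM in knockout and 349 to 367 TPM in wild-type libraries, a smaller rise of 0.39 ± 0.08 (limma, adjusted p = 0.000198). Abcg1 was 0.27 to 0.76 TPM in knockout and 0.8 to 0.98 TPM in wild-type libraries, with a log2 change of -0.36 ± 0.26 that did not pass (limma, adjusted p = 0.28).

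**Figure D2:**
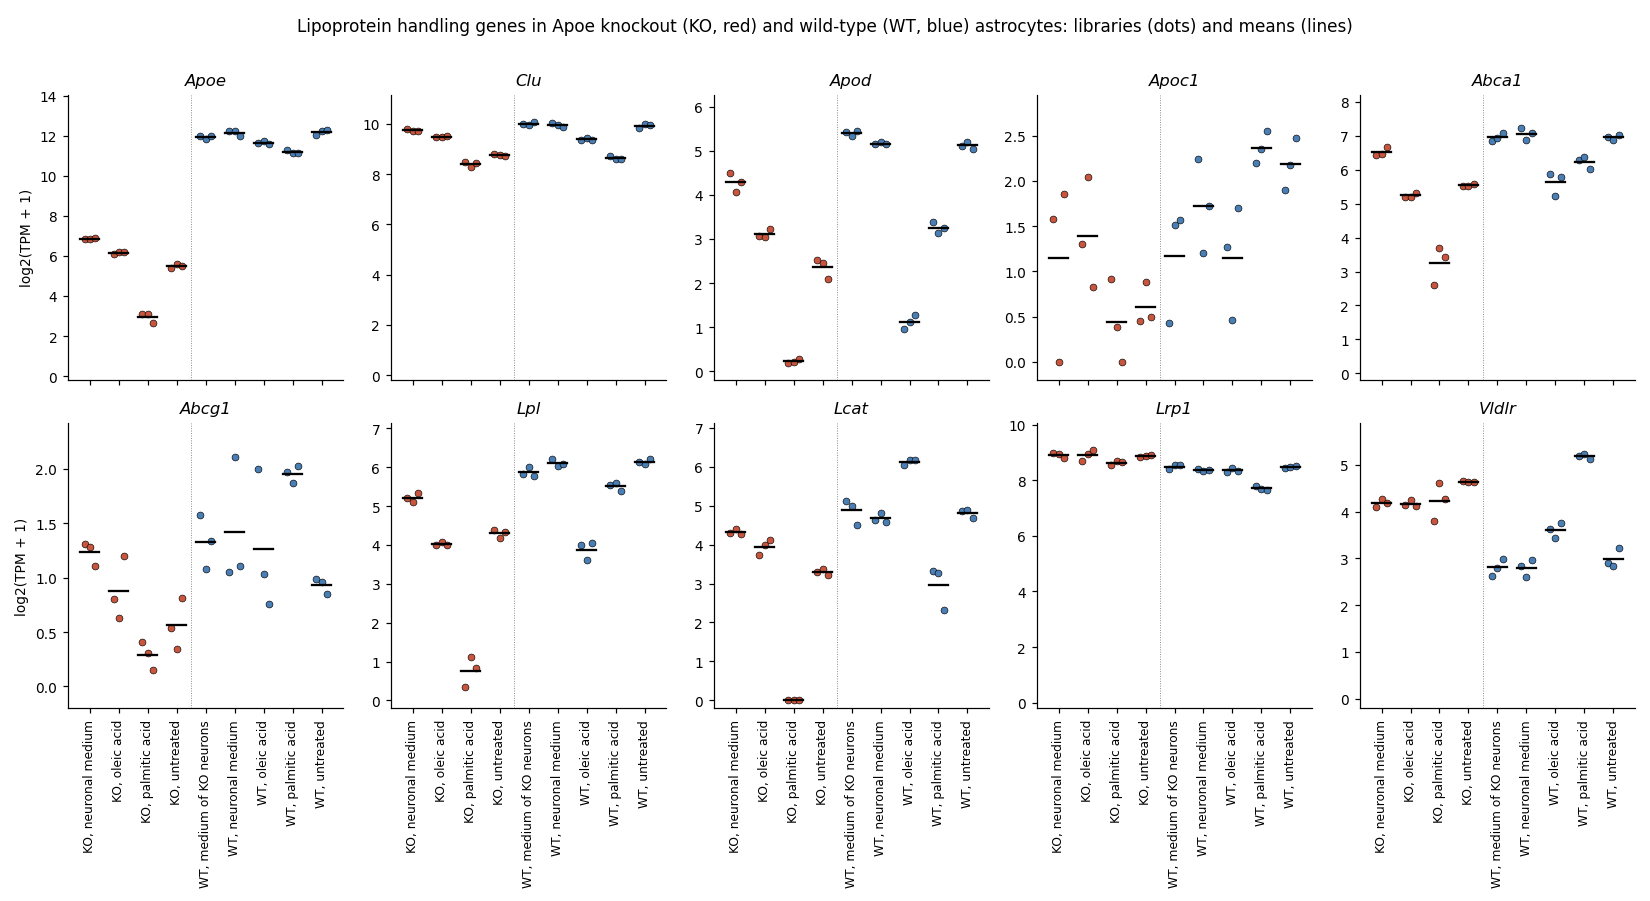
Levels of the 10 members in the 27 astrocyte libraries, as log2(TPM + 1), by genotype and treatment. Points are libraries and lines are means of log2(TPM + 1). Apod ranged from 0.14 TPM in a knockout palmitic acid library to 42.4 TPM in a wild-type library with medium of knockout neurons, while Lrp1 stayed between 202 and 544 TPM.

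Of the other genes of the pathway, 1 rose and 3 fell among the 11 other apolipoproteins, 6 and 12 among the 28 other lipoprotein receptors and adaptors, 4 and 6 among the 17 other sterol and phospholipid transporters, 3 and 4 among the 12 other lipoprotein enzymes and their regulators and 4 and 7 among the 16 nuclear receptors and their targets. Beside these counts, 44.9% of all genes passed. The list of other apolipoproteins also holds the receptor gene Apobr, so its counts are not of apolipoproteins alone. Sorl1, a sorting receptor that binds apolipoprotein E, averaged 33.9 ± 1.88 TPM in knockout and 129 ± 6.13 TPM in wild-type cells, a log2 change of -1.89 (limma, adjusted p = 5.3e-12). Pltp, the phospholipid transfer protein, averaged 127 ± 1.699 TPM in knockout and 224 ± 18.8 TPM in wild-type cells. Angptl4, a secreted inhibitor of lipoprotein lipase, rose by 1.51 on the log2 scale, to 5.24 ± 0.316 TPM in knockout cells, against 1.197 ± 0.255 TPM in wild-type cells. The nuclear receptor gene Pparg rose as well, to 7.99 ± 0.673 TPM in knockout cells, against 2.14 ± 0.284 TPM in wild-type cells. The astrocyte markers moved with these members: 11 of 11 tested fell, and their sum was 652 to 673 TPM in knockout and 2578 to 2879 TPM in wild-type libraries. The part of that shift in the members' changes, and that of the sex-linked difference already given, was not tested.

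Oleic acid, the monounsaturated fatty acid, was given to wild-type astrocytes. Against untreated wild-type cells, Lcat and Vldlr rose and 6 members fell: Apoe, Clu, Apod, Apoc1, Abca1 and Lpl. 59.8% of 16161 genes passed in this comparison, so a share of the members near that figure is no result about them. The members' median log2 change was -0.53, against 0.00 over all genes tested, and 9 of the 10 did not overlap between the groups, as for 65.1% of all genes. The plot of astrocyte levels shows Apod and Lpl dropping apart from the other members and Lcat standing above its untreated level.

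Apoe had 3203, 3438 and 3065 TPM in oleic acid and 4234, 4787 and 5024 TPM in untreated libraries, a log2 change of -0.53 ± 0.10 (limma, adjusted p = 7.01e-05). Clu moved by nearly the same amount, -0.54 ± 0.06 (limma, adjusted p = 4.03e-08), with libraries at 659 to 699 TPM in oleic acid and 924 to 1016 TPM in untreated cells. Neither gene had overlapping libraries. Apod had 0.94, 1.16 and 1.41 TPM in oleic acid and 33.4, 35.97 and 32.03 TPM in untreated libraries, a log2 change of -4.01 ± 0.11 (limma, adjusted p = 5.43e-17). Apod went to the lowest mean of the 10 members in oleic acid, with no library above 1.41 TPM. Apoc1 was 1.42, 0.38 and 2.24 TPM in oleic acid and 2.72, 3.53 and 4.55 TPM in untreated libraries, a log2 change of -1.04 ± 0.43 (limma, adjusted p = 0.0434). That call was lost without oleic acid 1 (-1.10, limma adjusted p = 0.061), oleic acid 2 (-0.70), untreated 2 (-1.04) or untreated 3 (-0.89), with a pseudocount of 0.1 (-1.60) and with no filter on low values (-1.04).

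Abca1 had 57.5, 36.6 and 54.7 TPM in oleic acid and 125, 118 and 129 TPM in untreated libraries, a log2 change of -1.33 ± 0.19 (limma, adjusted p = 4.43e-06). Oleic acid 2 was the lowest, and all 3 lay below every untreated library. Abcg1 had 2.99, 1.05 and 0.69 TPM in oleic acid and 0.98, 0.94 and 0.8 TPM in untreated libraries, and its change of 0.33 ± 0.26 did not pass (limma, adjusted p = 0.289). Lpl had 14.9, 11.1 and 15.5 TPM in oleic acid and 69.8, 66.8 and 72.8 TPM in untreated libraries, a log2 change of -2.26 ± 0.14 (limma, adjusted p = 1.15e-11). Lcat rose, with 65.2, 71.3 and 70.7 TPM in oleic acid and 27.9, 28.6 and 24.9 TPM in untreated libraries, a log2 change of 1.32 ± 0.18 (limma, adjusted p = 3.04e-06). The 2 enzymes therefore moved in opposite directions, each without overlap. Vldlr had 11.3, 9.81 and 12.4 TPM in oleic acid and 6.43, 6.11 and 8.36 TPM in untreated libraries, a log2 change of 0.62 ± 0.15 (limma, adjusted p = 0.00133). Lrp1 was 314 to 347 TPM in oleic acid and 349 to 367 TPM in untreated libraries, a difference of -0.13 ± 0.08 with a 95% interval of -0.29 to 0.03 that did not pass (limma, adjusted p = 0.147).

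In the remaining pathway lists with oleic acid, 3 rose and 2 fell among the 11 other apolipoproteins, 10 and 13 among the 28 other lipoprotein receptors and adaptors, 9 and 5 among the 17 other sterol and phospholipid transporters, 5 and 4 among the 12 other lipoprotein enzymes and their regulators and 6 and 5 among the 16 nuclear receptors and their targets. Beside these counts, 59.8% of all genes passed. Apoa1, the main protein of plasma high-density lipoprotein, had 38.1 ± 1.06 TPM in oleic acid and 0.07 ± 0.121 TPM in untreated cells, a log2 change of 5.20 (limma, adjusted p = 3.91e-15). Lipa, the lysosomal acid lipase, rose to 99.2 ± 4.69 TPM in oleic acid, against 42.6 ± 3.104 TPM in untreated cells, and Npc1, which moves cholesterol out of lysosomes, to 56.9 ± 0.665 TPM in oleic acid, against 32.6 ± 1.63 TPM untreated. Srebf1, a regulator of fatty acid synthesis and a liver X receptor target, fell to 36.96 ± 3.03 TPM in oleic acid, against 71.7 ± 4.38 TPM in untreated cells. Among astrocyte markers 1 rose and 9 fell of 11 tested, their sum was 1569.7 to 1598 TPM in oleic acid and 2578 to 2879 TPM in untreated libraries, and Gjb6 was listed at 0 in oleic acid. Microglia and macrophage markers summed to 746 to 818 TPM in oleic acid and 427 to 468 TPM untreated, and mural cell and fibroblast markers to 3795 to 4271 TPM in oleic acid and 7573 to 8279.9 TPM untreated, both without overlap. Mitochondrial genes took 2.96 to 3.98% of TPM in oleic acid and 5.52 to 6.83% in untreated libraries. Their part in the members' changes, and that of the sex-linked difference already given, was not tested.

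Palmitic acid, the saturated fatty acid, gave 2 rises and 7 falls among the members in wild-type astrocytes, against untreated cells, with Apoc1 not past the threshold. 59.8% of genes passed, the members' median log2 change was -0.75 against -0.08 over all genes tested, and 9 members and 69% of all genes did not overlap. Abcg1 and Vldlr were the rises. Both fatty acid comparisons use the same 3 untreated libraries, so their values stand side by side here and no overlap between them is read.

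Apoe had 2462, 2225 and 2221 TPM in palmitic acid and 4234, 4787 and 5024 TPM in untreated libraries, a log2 change of -1.02 ± 0.10 (limma, adjusted p = 6.53e-09). Clu had 419, 389 and 383 TPM in palmitic acid and 924 to 1016 TPM in untreated libraries, a log2 change of -1.30 ± 0.06 (limma, adjusted p = 1.49e-14). Every palmitic acid library of these 2 abundant particle proteins lay below every untreated one. Apod fell to 9.37, 7.74 and 8.54 TPM in palmitic acid, against 32.03 to 35.97 TPM untreated, a log2 change of -1.87 ± 0.11 (limma, adjusted p = 4.88e-12). Apoc1 had 3.57, 4.1 and 4.88 TPM in palmitic acid and 2.72, 3.53 and 4.55 TPM in untreated libraries, which overlapped, and a change of 0.18 ± 0.43 that did not pass (limma, adjusted p = 0.737).

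Abca1 had 76.7, 81.6 and 63.9 TPM in palmitic acid and 118 to 129 TPM in untreated libraries, a log2 change of -0.74 ± 0.19 (limma, adjusted p = 0.00206). Abcg1 had 2.92, 2.65 and 3.08 TPM in palmitic acid and 0.98, 0.94 and 0.8 TPM in untreated libraries, a log2 change of 1.03 ± 0.26 (limma, adjusted p = 0.00203) that was 1.57 with a pseudocount of 0.1. The 2 transporters moved apart, and Abcg1 stayed a low gene. Lpl had 46.1, 47.4 and 40.95 TPM in palmitic acid and 66.8 to 72.8 TPM in untreated libraries, a log2 change of -0.63 ± 0.14 (limma, adjusted p = 0.000412). Lcat had 9.02, 8.61 and 4 TPM in palmitic acid and 24.9 to 28.6 TPM in untreated libraries, a log2 change of -1.84 ± 0.18 (limma, adjusted p = 1.74e-08), with palmitic acid 3 the lowest. Lrp1 had 224, 208 and 202 TPM in palmitic acid and 349 to 367 TPM in untreated libraries, a log2 change of -0.76 ± 0.08 (limma, adjusted p = 1.65e-08). Vldlr had 35.7, 36.6 and 33.7 TPM in palmitic acid and 6.43, 6.11 and 8.36 TPM in untreated libraries, a log2 change of 2.20 ± 0.15 (limma, adjusted p = 3.83e-11). The 2 receptors thus moved in opposite directions, each without overlap.

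In those lists with palmitic acid, 4 rose and 2 fell among the 11 other apolipoproteins, 9 and 13 among the 28 other lipoprotein receptors and adaptors, 5 and 7 among the 17 other sterol and phospholipid transporters, 5 and 5 among the 12 other lipoprotein enzymes and their regulators and 3 and 6 among the 16 nuclear receptors and their targets. Beside these counts, 59.8% of all genes passed. Angptl4, the lipase inhibitor, averaged 20.7 ± 1.68 TPM in palmitic acid and 1.197 ± 0.255 TPM in untreated cells, a log2 change of 3.30 (limma, adjusted p = 3.48e-14). Soat2, which esterifies cholesterol inside cells, had 3.68 ± 0.487 TPM in palmitic acid and 0.05 ± 0.0624 TPM in untreated cells. Sorl1 fell to 19.6 ± 0.861 TPM in palmitic acid, against 129 ± 6.13 TPM in untreated cells, and Lrpap1, the chaperone of the receptor family, to 106 ± 2.396 TPM in palmitic acid, against 170.03 ± 3.53 TPM untreated. All 11 astrocyte markers tested fell, with a sum of 840.3 to 1028 TPM in palmitic acid and 2578 to 2879 TPM in untreated libraries and Gjb6 listed at 0 in palmitic acid. Microglia and macrophage markers summed to 732 to 822 TPM in palmitic acid and 427 to 468 TPM in untreated libraries, and mural cell and fibroblast markers to 3253 to 3606 TPM in palmitic acid and 7573 to 8279.9 TPM untreated. Mitochondrial genes took 3.48 to 4.17% of TPM in palmitic acid and 5.52 to 6.83% untreated. The part of these shifts in the members' changes, and that of the sex-linked difference already given, was not tested.

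Set directly against each other in wild-type cells, oleic acid was higher than palmitic acid for 4 members (Apoe, Clu, Lcat and Lrp1) and lower for the other 6. 58.2% of genes passed in this comparison, and 9 members did not overlap, as for 62.6% of all genes. Oleic acid is monounsaturated with the longer chain, palmitic acid is saturated, and neither doses nor times are known from the sources used here. Lcat differed most, at 69.1 ± 3.37 TPM in oleic acid and 7.21 ± 2.79 TPM in palmitic acid, a log2 difference of 3.16 ± 0.18 (limma, adjusted p = 4.14e-12). It was also the single member whose level lay on either side of untreated cells with both changes past the threshold. Apod had 1.17 ± 0.235 TPM in oleic acid and 8.55 ± 0.815 TPM in palmitic acid, a difference of -2.14 ± 0.11 (limma, adjusted p = 8.15e-13). Lpl differed by -1.63 ± 0.14 (limma, adjusted p = 1.16e-09) and Vldlr by -1.58 ± 0.15 (limma, adjusted p = 8.91e-09), both lower in oleic acid. Apoe was higher in oleic acid by 0.49 ± 0.10 (limma, adjusted p = 0.000156), Clu by 0.76 ± 0.06 and Lrp1 by 0.63 ± 0.08. Abca1 differed by -0.59 ± 0.19 (limma, adjusted p = 0.0119), a call lost without oleic acid 2 (-0.39) or palmitic acid 2 (-0.51). Abcg1 differed by -0.69 ± 0.26 with overlapping libraries, a call lost without oleic acid 2 (-0.58), oleic acid 3 (-0.44), palmitic acid 1 (-0.69) or palmitic acid 3 (-0.66) or with no filter (-0.69), and -1.06 without oleic acid 1. Apoc1 differed by -1.22 ± 0.43, a call lost without oleic acid 2 (-0.88) or palmitic acid 3 (-1.13) and with a pseudocount of 0.1 (-1.83). In the pathway lists, oleic acid against palmitic acid, 3 were higher and 3 lower among the 11 other apolipoproteins, 10 and 9 among the 28 other lipoprotein receptors and adaptors, 10 and 4 among the 17 other sterol and phospholipid transporters, 4 and 3 among the 12 other lipoprotein enzymes and their regulators and 9 and 3 among the 16 nuclear receptors and their targets. Apoa1, the main apolipoprotein of plasma high-density lipoprotein, had 38.1 ± 1.06 TPM in oleic acid and 0.95 ± 0.613 TPM in palmitic acid. Sort1, the sorting receptor sortilin, had 86.997 ± 1.86 TPM in oleic acid and 30.5 ± 1.54 TPM in palmitic acid, and Scd1 had 42.9 ± 2.298 TPM in oleic acid and 80.1 ± 3.49 TPM in palmitic acid.

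Medium of neurons moved no member past the threshold in wild-type astrocytes. With neuronal medium against untreated cells, limma called 0 members and 0 members had an unadjusted p under 0.05, where 0.0371% of all genes passed and 6.38% had such a p. Apoe was 4096 to 4896 TPM with neuronal medium and 4234 to 5024 TPM untreated, with a log2 change of -0.03 ± 0.10 and a 95% interval of -0.23 to 0.17. Abca1 was 116 to 149.9 TPM with neuronal medium and 118 to 129 TPM untreated. Abcg1 and Lrp1 were the 2 members without overlap, as were 14.9% of all genes, at 1.08, 3.31 and 1.15 TPM with neuronal medium and 0.98, 0.94 and 0.8 TPM untreated for Abcg1, and 340.4, 319 and 334 TPM with neuronal medium and 349, 360.2 and 367 TPM untreated for Lrp1.

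Medium of Apoe knockout neurons, against untreated cells, gave 0 member calls by limma, with 3 members at an unadjusted p under 0.05 (12% of all genes) and 5 without overlap (20.4% of all genes). By limma 1.5% of all genes passed, 157 higher and 86 lower, or 77 and 82 with median-ratio scaling. Apoe was 4016, 3665 and 4109 TPM with this medium and 4234, 4787 and 5024 TPM untreated, a log2 change of -0.25 ± 0.10 (limma, adjusted p = 0.258). Its libraries did not overlap, yet the change missed the threshold. Apod was 42.02, 39.03 and 42.4 TPM with this medium and 33.4, 35.97 and 32.03 TPM untreated, and Lpl 55.8, 63.2 and 53.9 TPM with this medium and 69.8, 66.8 and 72.8 TPM untreated. Their log2 changes were 0.28 ± 0.11 and -0.27 ± 0.14 (limma, adjusted p = 0.302 and 0.44). Against neuronal medium, limma again called 0 members, with 2 at an unadjusted p under 0.05 (12.9% of all genes) and 2 without overlap (23.1% of all genes), where 1.42% of all genes passed. Apoe differed by -0.22 ± 0.10 (limma, adjusted p = 0.323) and overlapped, at 4016, 3665 and 4109 TPM with medium of knockout neurons and 4896, 4773 and 4096 TPM with neuronal medium. All 3 comparisons share libraries with another of them. In the pathway lists, 1 receptor gene, Lrp11, rose with medium of knockout neurons against untreated cells, at 24.7 ± 3.51 TPM with this medium and 18.3 ± 1.07 TPM untreated. Soat1, a cholesterol acyltransferase, rose to 58.8 ± 3.14 TPM with this medium, against 41.5 ± 6.01 TPM untreated, and Scd1, a desaturase, fell to 58.98 ± 4.32 TPM with this medium, against 75.8 ± 1.22 TPM untreated. Between the media, Lrp1b, a large receptor related to Lrp1, was lower at 2.01 ± 0.4899 TPM with medium of knockout neurons and 3.43 ± 0.496 TPM with neuronal medium (limma, adjusted p = 0.0459), and Scd1 was lower at 58.98 ± 4.32 TPM with medium of knockout neurons and 73.97 ± 2.96 TPM with neuronal medium (limma, adjusted p = 0.0445). With neuronal medium, 0 of the 84 list genes tested passed (limma), and 4 had an unadjusted p under 0.05, against 6.38% of all genes.

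In knockout astrocytes members did pass the threshold with neuronal medium. Against untreated knockout cells, 6 rose (Apoe RNA that was left, Clu, Apod, Abca1, Lpl and Lcat) and Vldlr fell, with 8 members and 51.4% of all genes free of overlap, where 31.2% of all genes passed and the median log2 change was 0.94 over the members and 0.00 over all genes. These changes ran toward the untreated wild-type levels for each of the 7. Clu had 879.6, 853 and 844 TPM with neuronal medium and 441, 430.2 and 426 TPM untreated, a log2 change of 0.99 ± 0.06 (limma, adjusted p = 8.17e-12). Apod had 21.6, 15.7 and 18.7 TPM with neuronal medium and 4.71, 4.5 and 3.28 TPM untreated, a log2 change of 1.93 ± 0.11 (limma, adjusted p = 1.71e-11). The untreated wild-type levels of these particle genes, 978 ± 48.4 and 33.8 ± 2.004 TPM, were still above both groups. Abca1 had 85.4, 87.03 and 100.5 TPM with neuronal medium and 44.9, 45.2 and 47.4 TPM untreated, a log2 change of 0.97 ± 0.19 (limma, adjusted p = 0.000387). Lpl had 35.7, 33.5 and 39.6 TPM with neuronal medium and 19.8, 17.2 and 19.2 TPM untreated, a log2 change of 0.92 ± 0.14 (limma, adjusted p = 1.61e-05). Lcat had 18.6, 20.1 and 18.4 TPM with neuronal medium and 8.91, 9.35 and 8.34 TPM untreated, a log2 change of 1.02 ± 0.18 (limma, adjusted p = 0.000159). In each of these genes every library with medium lay above every untreated library. Vldlr had 16.1, 18.3 and 17.3 TPM with neuronal medium and 24.01, 23.8 and 23.9 TPM untreated, a log2 change of -0.45 ± 0.15 (limma, adjusted p = 0.025). That call was lost without neuronal medium 1 (-0.41) or 3 (-0.46) and without untreated 1 (-0.45), 2 (-0.46) or 3 (-0.45).

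The residual Apoe RNA rose by 1.37 ± 0.10 on the log2 scale with neuronal medium in knockout cells (limma, adjusted p = 2.83e-10). Apoc1 had 1.98, 0 and 2.63 TPM with neuronal medium and 0.37, 0.84 and 0.41 TPM untreated, Abcg1 1.48, 1.43 and 1.15 TPM with medium and 0.45, 0.27 and 0.76 TPM untreated, and neither passed (limma, adjusted p = 0.391 and 0.0605). Apoc1 passed without neuronal medium 2 (1.11) and Abcg1 with a pseudocount of 0.1 (1.37). Among the other pathway genes with neuronal medium, 0 rose and 1 fell among the 11 other apolipoproteins, 12 and 5 among the 28 other lipoprotein receptors and adaptors, 5 and 1 among the 17 other sterol and phospholipid transporters, 4 and 2 among the 12 other lipoprotein enzymes and their regulators and 8 and 1 among the 16 nuclear receptors and their targets. Beside these counts, 31.2% of all genes passed. Pltp rose to 307 ± 11.6 TPM with neuronal medium, against 127 ± 1.699 TPM in untreated knockout cells, and Sorl1 to 97.3 ± 2.35 TPM with neuronal medium, against 33.9 ± 1.88 TPM untreated. Lrp2, the endocytic receptor megalin, rose to 39.8 ± 2.07 TPM with neuronal medium, against 15.7 ± 0.748 TPM untreated. All 11 astrocyte markers tested rose as well, with sums of 1531 to 1646 TPM with neuronal medium and 652 to 673 TPM in untreated knockout libraries. The part of that shift in the members' changes, and that of the sex-linked difference already given, was not tested. Mural cell and fibroblast markers summed to 6356 to 7293 TPM with neuronal medium and 6231 to 6341 TPM untreated.

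Oleic acid on knockout astrocytes gave 4 rises (residual Apoe, Clu, Apod and Lcat) and 1 fall (Vldlr), against untreated knockout cells, with 7 members and 57% of all genes free of overlap, where 41.8% of all genes passed. The median log2 change was 0.48 over the members and -0.03 over all genes. Clu had 709.6, 719 and 736 TPM in oleic acid and 441, 430.2 and 426 TPM untreated, a log2 change of 0.74 ± 0.06 (limma, adjusted p = 8.24e-09). Apod had 7.36, 7.31 and 8.38 TPM in oleic acid and 4.71, 4.5 and 3.28 TPM untreated, a log2 change of 0.76 ± 0.11 (limma, adjusted p = 2.74e-05). In both, every oleic acid library lay above every untreated one, whereas in wild-type cells every oleic acid library lay below. Lcat had 12.2, 14.99 and 16.4 TPM in oleic acid and 8.91, 9.35 and 8.34 TPM untreated, a log2 change of 0.65 ± 0.18 (limma, adjusted p = 0.00841). Abca1 was 35.7 to 39.05 TPM in oleic acid and 44.9 to 47.4 TPM untreated, and Lpl 14.9 to 15.8 TPM in oleic acid and 17.2 to 19.8 TPM untreated. Neither overlapped, and neither change (-0.31 ± 0.19 and -0.28 ± 0.14) passed (limma, adjusted p = 0.207 and 0.107). Vldlr had 16.6, 17.97 and 16.4 TPM in oleic acid and 24.01, 23.8 and 23.9 TPM untreated, a log2 change of -0.47 ± 0.15 (limma, adjusted p = 0.0167) that was lost without oleic acid 3 (-0.45). The residual Apoe RNA rose by 0.69 ± 0.10 (limma, adjusted p = 1.42e-05).

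Among pathway genes outside the members, 5 rose and 2 fell among the 11 other apolipoproteins, 10 and 5 among the 28 other lipoprotein receptors and adaptors, 5 and 3 among the 17 other sterol and phospholipid transporters, 6 and 0 among the 12 other lipoprotein enzymes and their regulators and 5 and 2 among the 16 nuclear receptors and their targets. These counts stand beside 41.8% of all genes past the threshold, so a share near that figure is no result about the lists. Angptl4 rose to 22.5 ± 5.95 TPM in oleic acid, against 5.24 ± 0.316 TPM in untreated knockout cells, and Pltp to 228 ± 15.4 TPM in oleic acid, against 127 ± 1.699 TPM untreated. Trem2, a lipid and lipoprotein receptor of microglia, rose to 70.7 ± 12.98 TPM in oleic acid, against 27.1 ± 2.63 TPM untreated. Microglia and macrophage markers moved with these genes, and 9 of 12 tested rose. Their sum was 947 to 1051 TPM in oleic acid and 354 to 369.8 TPM in untreated knockout libraries. Astrocyte markers summed to 735 to 817 TPM in oleic acid and 652 to 673 TPM untreated. Mural cell and fibroblast markers summed to 4300 to 5002 TPM in oleic acid and 6231 to 6341 TPM untreated, and neither list overlapped. The part of these marker shifts in the members' changes, and that of the sex-linked difference already given, was not tested.

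Palmitic acid on knockout astrocytes gave no rise and 8 falls among the members, against untreated knockout cells, with 8 members and 76.5% of all genes free of overlap. 75.3% of all genes passed here, 3222 higher and 8946 lower, and the median log2 change was -1.27 over the members and -0.47 over all genes. With median-ratio scaling the median of all genes was -0.08, the split was 5759 higher and 6260 lower, and 1 member rose and 5 fell. These libraries had 12057 to 12915 genes at 1 TPM or more, against 14422 to 14488 in untreated knockout libraries, and 1.51 to 2.94% of TPM from mitochondrial genes, against 6.41 to 6.64% untreated.

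The residual Apoe RNA fell by 2.52 ± 0.10 on the log2 scale (limma, adjusted p = 1.18e-15). Apod had 0.14, 0.16 and 0.22 TPM in palmitic acid and 4.71, 4.5 and 3.28 TPM untreated, a log2 change of -2.13 ± 0.11 (limma, adjusted p = 3.23e-13) that was -3.96 with a pseudocount of 0.1. Abca1 had 5.07, 12.1 and 9.69 TPM in palmitic acid and 44.9, 45.2 and 47.4 TPM untreated, a log2 change of -2.31 ± 0.19 (limma, adjusted p = 5.74e-10). All 3 palmitic acid libraries lay far below the untreated ones in these genes. Lpl had 0.27, 1.15 and 0.77 TPM in palmitic acid and 19.8, 17.2 and 19.2 TPM untreated, a log2 change of -3.54 ± 0.14 (limma, adjusted p = 1.36e-15). Lcat was listed at 0 in all 3 palmitic acid libraries, against 8.91, 9.35 and 8.34 TPM in untreated knockout libraries, and no fold is given. Abca1, Lpl and Lcat are the genes of loading, lipolysis and esterification.

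Clu had 361, 310.4 and 346 TPM in palmitic acid and 441, 430.2 and 426 TPM untreated, a log2 change of -0.35 ± 0.06 (limma, adjusted p = 6.81e-06) that was 0.21 with median-ratio scaling. Lrp1 had 374, 417 and 405 TPM in palmitic acid and 463, 473 and 478 TPM untreated, a log2 change of -0.24 ± 0.08 (limma, adjusted p = 0.00688) that turned to 0.32 with that scaling (limma, adjusted p = 0.0018). Vldlr had 13.01, 23.6 and 18.2 TPM in palmitic acid and 24.01, 23.8 and 23.9 TPM untreated, a log2 change of -0.41 ± 0.15 (limma, adjusted p = 0.0187), lost without palmitic acid 1 (-0.20) and 0.13 with that scaling. The direction of Clu, Lrp1 and Vldlr therefore depends on the scaling, while Apoe, Apod, Abca1 and Lpl fell under both. Apoc1 and Abcg1 stayed low in both groups, with 0.89, 0.31 and 0 TPM of Apoc1 in palmitic acid and 0.37, 0.84 and 0.41 TPM untreated, and 0.33, 0.24 and 0.11 TPM of Abcg1 in palmitic acid and 0.45, 0.27 and 0.76 TPM untreated, and did not pass (limma, adjusted p = 0.727 and 0.353).

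The same lists with palmitic acid gave these counts: 2 rose and 5 fell among the 11 other apolipoproteins, 5 and 18 among the 28 other lipoprotein receptors and adaptors, 7 and 9 among the 17 other sterol and phospholipid transporters, 5 and 2 among the 12 other lipoprotein enzymes and their regulators and 10 and 5 among the 16 nuclear receptors and their targets. Beside these counts, 75.3% of all genes passed. Scd1 and Fasn, enzymes of fatty acid synthesis, rose to 107 ± 10.8 and 166 ± 7.24 TPM in palmitic acid, against 35.5 ± 0.395 and 64.4 ± 3.52 TPM untreated. Npc2, the lysosomal cholesterol carrier, rose to 232 ± 19.4 TPM in palmitic acid, against 109 ± 1.96 TPM untreated, and Sorl1 fell to 3.66 ± 0.513 TPM in palmitic acid, against 33.9 ± 1.88 TPM untreated. Astrocyte markers summed to 104 to 127 TPM in palmitic acid and 652 to 673 TPM untreated, with 11 of 11 lower and Gjb6 listed at 0. Microglia and macrophage markers summed to 97.2 to 104 TPM in palmitic acid and 354 to 369.8 TPM untreated. Mural cell and fibroblast markers summed to 939 to 1058 TPM in palmitic acid and 6231 to 6341 TPM untreated. The part of these marker shifts in the members' changes, and that of the sex-linked difference already given, was not tested.

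Whether a treatment's change differed between the genotypes was tested directly, as the change in knockout cells minus that in wild-type cells. The fits were by group alone and took no account of the sex-linked differences already given. For neuronal medium 6 members differed, all in the positive direction, where 18.5% of all genes passed: Apoe by 1.40 ± 0.14, Clu by 0.96 ± 0.08, Apod by 1.89 ± 0.16, Abca1 by 0.87 ± 0.27, Lpl by 0.96 ± 0.19 and Lcat by 1.15 ± 0.26 (limma, adjusted p = 1.32e-07 for Apoe and 0.0276 for Abca1). In wild-type cells the changes of these 6 had not passed. The Abca1 difference was lost without knockout medium 3 (0.79), knockout untreated 1 (0.85) or 2 (0.86), wild-type medium 2 (0.77) or wild-type untreated 3 (0.84), and with no filter (0.87), and the Lpl difference with a pseudocount of 0.1 (0.99).

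For oleic acid 6 members differed in the positive and 1 in the negative direction, where 29.6% of all genes passed. Apod differed most, by 4.77 ± 0.16 (limma, adjusted p = 3.04e-15), with a rise in knockout cells and a fall in wild-type cells. Lpl differed by 1.99 ± 0.19, Clu by 1.28 ± 0.08, Apoe by 1.22 ± 0.14 and Abca1 by 1.02 ± 0.27, and Vldlr by -1.09 ± 0.21, falling in knockout and rising in wild-type cells. Apoc1 differed by 1.81 ± 0.61, a call lost without knockout oleic acid 2 (1.49), knockout untreated 1 (1.74) or 3 (1.76), wild-type oleic acid 2 (1.47) or wild-type untreated 3 (1.67), with a pseudocount of 0.1 (3.02) and with no filter (1.81). Lcat rose in both genotypes, and the difference of -0.67 ± 0.26 did not pass (limma, adjusted p = 0.0573) but did without knockout oleic acid 3 (-0.76). Lrp1, at 0.15 ± 0.11, passed without knockout oleic acid 1 (0.26).

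For palmitic acid 2 members differed in the positive and 6 in the negative direction, where 57.6% of all genes passed, 2319 higher and 6985 lower, or 4639 and 4257 with median-ratio scaling. Lpl differed by -2.91 ± 0.19, Vldlr by -2.61 ± 0.21, Abca1 by -1.57 ± 0.27 and Apoe by -1.50 ± 0.14 (limma, adjusted p = 5.07e-11 for Lpl and 5.22e-05 for Abca1). Vldlr rose in wild-type cells, and its direction in knockout cells depended on the scaling. Clu and Lrp1 differed by 0.95 ± 0.08 and 0.52 ± 0.11, or by 1.43 and 1.00 with that scaling. Abcg1 differed by -1.30 ± 0.37, or -2.41 with a pseudocount of 0.1. Lcat passed this test too, but its knockout libraries were listed at 0, so the size is set by the pseudocount. Apod, at -0.26 ± 0.16, did not pass except with a pseudocount of 0.1 (-1.98) and without knockout untreated 3 (-0.39). The plot of changes by genotype shows knockout and wild-type points on opposite sides of 0 for Apod, Clu and Apoe under oleic acid.

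**Figure D3:**
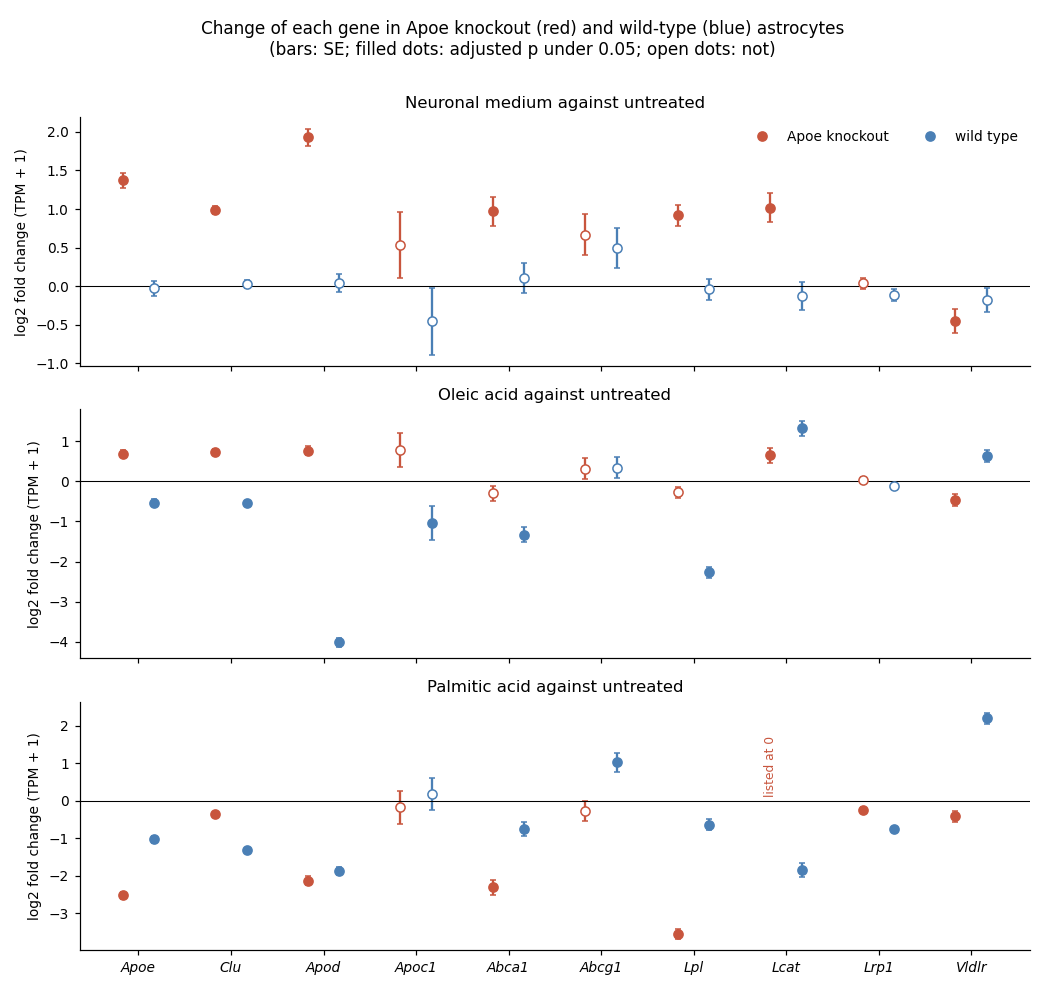
Log2(TPM + 1) changes of the 10 members against untreated cells of the same genotype, in knockout and wild-type astrocytes, for neuronal medium, oleic acid and palmitic acid. Bars are SE, filled points passed an adjusted p of 0.05 (limma) and open points did not, and Lcat in knockout palmitic acid is marked as listed at 0. Apod under oleic acid changed by 0.76 in knockout and -4.01 in wild-type cells.

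In CNO-treated brain, fitted without pairing, Apod was the single member past the threshold, and it rose. In that fit 3.7% of all genes passed, 535 higher and 36 lower. With the replicate number as a block 928 genes passed in all, against 571, and Abca1 passed too. Values that follow are from the fit without pairing unless the block is named. Apod had 849.95, 974 and 1068 TPM in CNO and 509.7, 439 and 466.4 TPM in untreated libraries, a log2 change of 1.03 ± 0.11 (limma, adjusted p = 0.00362). Every CNO library lay above every untreated one, as the plot of brain levels shows. Abca1 had 8.77, 9.47 and 11.2 TPM in CNO and 5.42, 4.11 and 7 TPM in untreated libraries, also without overlap. Its log2 change of 0.75 ± 0.19 did not pass (limma, adjusted p = 0.0837) but passed with the replicate number as a block (limma, adjusted p = 0.0365). The labels do not say that these numbers pair the libraries. Pairing was taken from how same-numbered libraries deviated together. Lpl was the remaining one of 3 members without overlap, where 21.6% of all genes had none, at 15.7, 19.1 and 14.6 TPM in CNO and 10.5, 14.3 and 11.4 TPM in untreated libraries, a change of 0.42 ± 0.15 that did not pass (limma, adjusted p = 0.225). Apoe itself had 4319.8, 3357 and 3362 TPM in CNO and 4395, 4724 and 4144 TPM in untreated libraries, a change of -0.27 ± 0.12 with a 95% interval of -0.56 to 0.02. The remaining 6 members overlapped, with log2 changes between -0.27 and 0.15. The members' median was 0.09, against 0.04 over all genes.

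In the pathway lists in CNO brain, 1 rose and 0 fell among the 9 other apolipoproteins, 1 and 0 among the 24 other lipoprotein receptors and adaptors, 0 and 0 among the 18 other sterol and phospholipid transporters, 0 and 0 among the 10 other lipoprotein enzymes and their regulators and 0 and 0 among the 18 nuclear receptors and their targets. Beside these counts, 3.7% of all genes passed. The apolipoprotein was Apoc2, an activator of lipoprotein lipase, at 1.68 ± 0.275 TPM in CNO and 0.183 ± 0.176 TPM in untreated libraries. The receptor was Trem2, at 54.5 ± 2.39 TPM in CNO and 20.7 ± 2.397 TPM in untreated libraries, a log2 change of 1.36 (limma, adjusted p = 0.00124). Among the 3 lists with 0 calls by limma, 6 of 46 genes had an unadjusted p under 0.05, as did 16.1% of all genes. Microglia and macrophage markers rose in 12 of 12 cases, to sums of 1295 to 1666 TPM in CNO and 492.96 to 582 TPM in untreated libraries, and astrocyte markers in 4 of 12, to 4746 to 4968 TPM in CNO and 2425 to 2973 TPM in untreated libraries. Their part in the rise of Apod, Apoc2 and Trem2 was not tested.

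**Figure D4:**
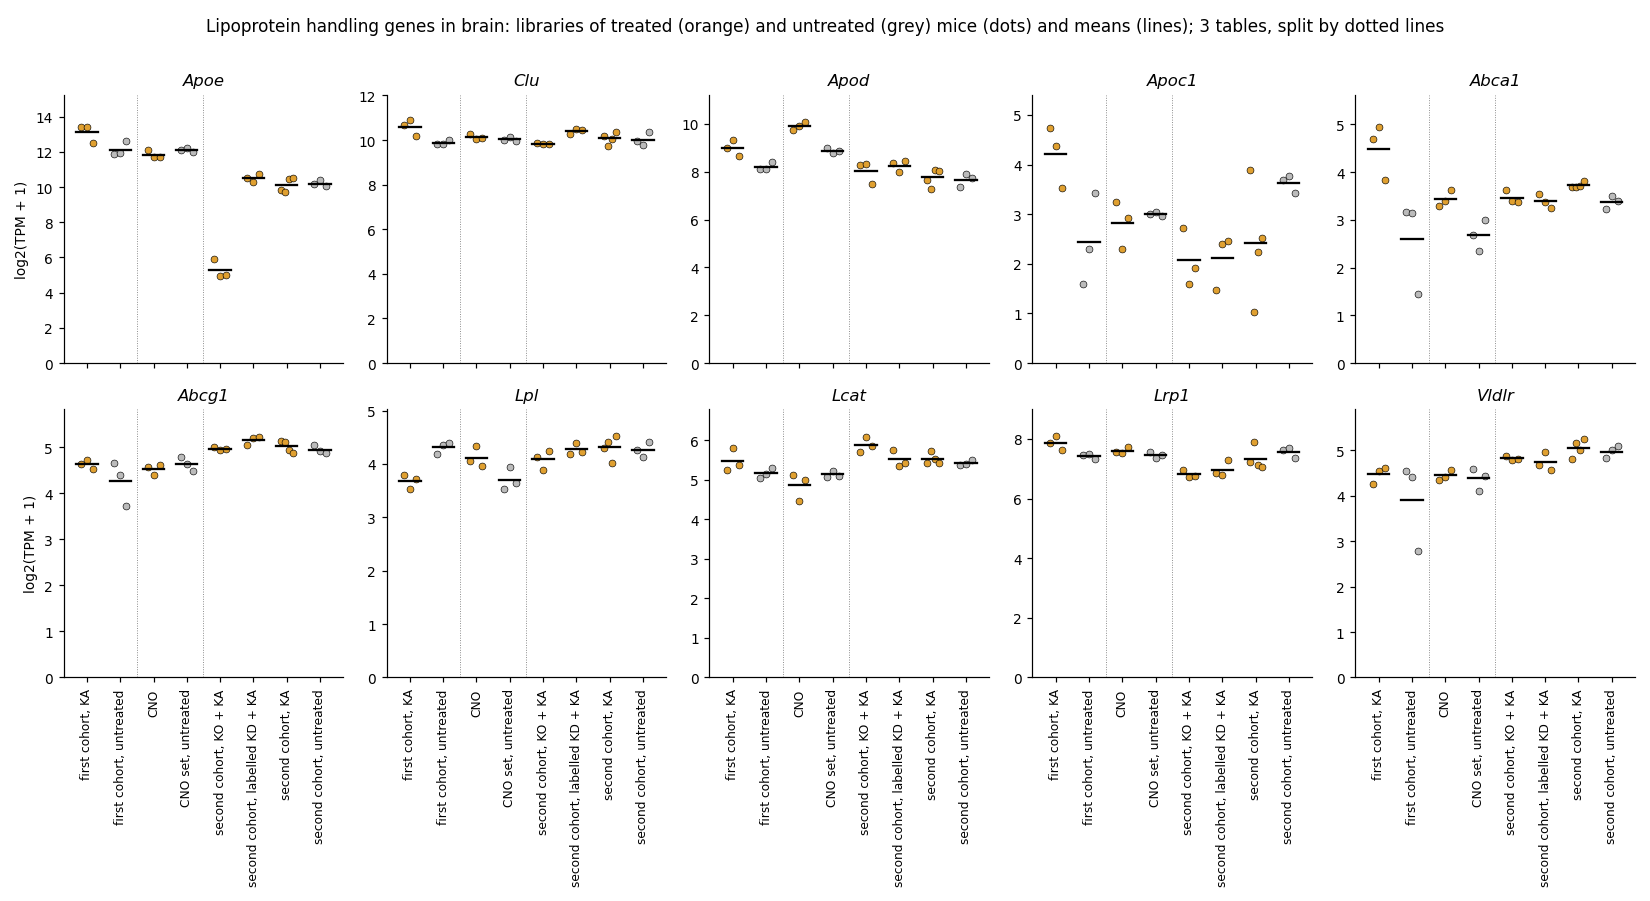
Levels of the 10 members in the 25 brain libraries, as log2(TPM + 1), by table and group. Points are libraries and lines are means of log2(TPM + 1). Apod lay at 849.95 to 1068 TPM in CNO and 439 to 509.7 TPM in untreated brain, and Apoe at 29.7 to 58.6 TPM in Apoe knockout with KA and 829.7 to 1467 TPM in KA brain.

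In the first KA cohort 0 members passed (limma), where 0.183% of all genes passed. At an unadjusted p under 0.05 there were 7 members and 13.5% of all genes, and 6 members and 27.3% of all genes did not overlap. Abca1 had 24.9, 29.6 and 13.3 TPM in KA and 8, 7.82 and 1.74 TPM in untreated libraries, a log2 change of 1.90 ± 0.53 (limma, adjusted p = 0.183). Apoc1 had 25.6, 19.6 and 10.5 TPM in KA and 2, 3.95 and 9.76 TPM in untreated libraries, a log2 change of 1.77 ± 0.52 (limma, adjusted p = 0.205). The KA libraries of both genes were above all untreated ones, with KA 3 the nearest to them. Apoe had 11012, 11109 and 5764 TPM in KA and 3746, 3866 and 6195 TPM in untreated libraries, a log2 change of 0.99 ± 0.33 (limma, adjusted p = 0.269). KA 1 and 2 were high, while KA 3 lay below untreated 3. Clu was 1173 to 1891 TPM in KA and 907 to 1027 TPM in untreated libraries, Apod 405 to 632 TPM in KA and 276 to 337 TPM in untreated, and Lrp1 198 to 276 TPM in KA and 160.3 to 179 TPM in untreated libraries, all without overlap. Lpl ran the other way, at 12.8, 10.6 and 12.1 TPM in KA and 17.2, 19.6 and 19.9 TPM in untreated libraries, a log2 change of -0.63 ± 0.18 (limma, adjusted p = 0.194).

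Without untreated 3, Apoc1 passed (2.26, limma adjusted p = 0.0497) and the change of Vldlr was -0.01, against 0.56 ± 0.47 with all libraries. The median log2 change of all genes was 0.25, against 0.63 over the members, and became -0.02 with median-ratio scaling, where 24 genes passed higher and 8 lower, against 24 and 4 without it. The pathway lists gave 0 calls among 73 genes tested (limma), with 17 of them at an unadjusted p under 0.05, against 13.5% of all genes. Astrocyte markers summed to 3103 to 4847 TPM in KA and 1494 to 2623 TPM in untreated libraries and did not overlap. Microglia and macrophage markers summed to 1411 to 3485 TPM in KA and 547 to 624 TPM in untreated libraries, and choroid plexus and ependyma markers to 1526 to 2309 TPM in KA and 157 to 1117 TPM in untreated libraries. Their part in these differences was not tested.

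In the second KA cohort no member moved past the threshold with KA. EdgeR called 0 of 10, and DESeq2 also called 0, where 0.0558% of all genes passed by edgeR. At an unadjusted p under 0.05 there was 1 member, with 6.72% of all genes, and 1 member did not overlap, with 7.62% of all genes. Apoe had 926, 829.7, 1383 and 1467 TPM in KA and 1135, 1329 and 1058 TPM in untreated libraries, a log2 change of -0.01 ± 0.26 (edgeR, adjusted p = 1). KA 1 and 2 lay below all untreated libraries and KA 3 and 4 above them. Abca1 was the member without overlap, at 11.8, 11.8, 12.02 and 13.1 TPM in KA and 8.398, 10.3 and 9.43 TPM in untreated libraries, a log2 change of 0.38 ± 0.10 (edgeR, adjusted p = 0.479). Apoc1 had 13.8, 1.03, 3.697 and 4.75 TPM in KA and 11.8, 12.6 and 9.76 TPM in untreated libraries, where KA 1 alone was as high as the untreated ones. Lrp1 in KA 2 was 238 TPM, apart from the other KA libraries at 131 to 148 TPM, but its counts were 36685, 36328, 34688 and 44204 in KA and 34005, 39621 and 39733 in untreated libraries, and the log2 change of counts was 0.03 ± 0.09. The pathway lists gave 0 calls among 101 genes tested, with 6 at an unadjusted p under 0.05 (edgeR), against 6.72% of all genes. Microglia and macrophage markers summed to 621 to 1063 TPM in KA and 489 to 569 TPM in untreated libraries. Erythrocyte markers summed to 338 to 432 TPM in KA and 465 to 682 TPM untreated, and neither list overlapped. Choroid plexus and ependyma markers ranged from 45.1 to 2109 TPM among the KA libraries. The part of these sums in the members' values was not tested.

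In Apoe knockout brain with KA, against KA brain, Apoe was the single member past the threshold, where 0.112% of all genes passed. At an unadjusted p under 0.05 there were 3 members and 9.33% of all genes, and 3 members and 9.85% of all genes did not overlap. The Apoe log2 change was -5.08 ± 0.33 (edgeR, adjusted p = 2.86e-05), with the values already given. Abca1 had 11.3, 9.47 and 9.297 TPM in knockout with KA and 11.8, 11.8, 12.02 and 13.1 TPM in KA libraries, a log2 change of -0.25 ± 0.10 with a 95% interval of -0.47 to -0.02 (edgeR, adjusted p = 0.491). Lrp1 had 122, 105 and 108 TPM in knockout with KA, below every KA library, and a change of counts of -0.15 ± 0.09 (edgeR, adjusted p = 0.621). Clu had 929, 913 and 898 TPM in knockout with KA and 1164, 852, 1047 and 1323 TPM in KA libraries, with a 95% interval of -0.49 to 0.04 for its log2 change. Untreated knockout astrocytes differed from wild-type ones by -1.17 ± 0.06 for Clu, -2.76 ± 0.11 for Apod and -1.84 ± 0.14 for Lpl. In brain with KA the differences were -0.23 ± 0.12, 0.18 ± 0.22 and -0.23 ± 0.13. Lcat had 2289, 3205 and 2730 counts in knockout with KA and 1931, 2204, 2020 and 1911 counts in KA libraries. With a library left out, its log2 change ran from 0.25 to 0.48 in brain and never passed (edgeR, lowest adjusted p = 0.346). In untreated astrocytes the Lcat change ran from -1.57 to -1.47 in the same way. These come from separate tables and units, and the difference between them was not tested. The pathway lists gave 0 calls among 101 genes tested in the knockout brain (edgeR), with 14 at an unadjusted p under 0.05, against 9.33% of all genes.

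The libraries labelled A2aR knockdown with KA did not stand apart in the gene named by their label, the adenosine receptor Adora2a: they had 1.75, 2.15 and 1.89 TPM (162, 181 and 171 counts), against 1.95, 2.901, 1.32 and 2.26 TPM (173, 237, 114 and 117 counts) in KA libraries, with overlap. Against KA brain, edgeR called 0 members in the libraries labelled A2aR knockdown, and DESeq2 called 0, where 0.0386% of all genes passed by edgeR. At an unadjusted p under 0.05 there were 3 members and 9.25% of all genes, and 1 member and 9.05% of all genes did not overlap. Apoe had 1473, 1256 and 1697 TPM in the labelled knockdown, overlapping the KA libraries, and a change of 0.47 ± 0.26 (edgeR, adjusted p = 0.61). Apod had 326, 249 and 348 TPM in the labelled knockdown and 203, 155, 269 and 259 TPM in KA libraries, a change of 0.51 ± 0.22 (edgeR, adjusted p = 0.518). Abca1 had 10.7, 9.28 and 8.502 TPM in the labelled knockdown, below every KA library, and a change of -0.25 ± 0.10 (edgeR, adjusted p = 0.501). Among the pathway lists edgeR called 0 of 101 genes tested, with 14 at an unadjusted p under 0.05, against 9.25% of all genes. Erythrocyte markers summed to 478 to 732 TPM in the labelled knockdown and 338 to 432 TPM in KA libraries, without overlap. Their part in the members' differences was not tested. Both comparisons and the untreated one share the 4 KA libraries.

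Across the 15 wild-type astrocyte libraries, which share a table and fall into 5 treatment groups, the members split into sets that moved alike on log2(TPM + 1). Apoe and Clu had a Pearson r of 0.956 and Clu and Lrp1 of 0.933. Apod, Abca1 and Lpl formed another set, at 0.946 for Apod and Lpl, 0.946 for Apod and Abca1 and 0.927 for Abca1 and Lpl. Vldlr ran against the first set, at -0.976 with Clu, -0.924 with Lrp1 and -0.919 with Apoe. Lcat had 0.478 with Apoe and -0.493 with Lpl. Among 11538 genes at 1 TPM or more in all 15 libraries, those most like Apoe were Ndrg2 at 0.990, Tst at 0.988 and Oat at 0.977. Over the 10 second-cohort brain libraries without an Apoe knockout and 12734 genes, they were Rlbp1 at 0.887, Depdc7 at 0.873 and Pgm5 at 0.870. These correlations describe treatment groups that differ in many genes, and no p is given.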

How the data were processed

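Total RNA of mouse brain and cultured astrocytes was sequenced, with libraries made with TruSeq after Trizol extraction, per the labels' protocols. Per the submitters' processing notes the tools were HISAT2, StringTie and RSEM on mm10, without roles or versions. The authors deposited TPM in all 4 tables and gene counts in the second cohort. The column labels or values gave these units (TPM summed to 978422 to 999897 per library), and 0 value columns belonged to no listed sample.

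TPM tables were fitted with limma 3.58.1 (R 4.3.3), as log2 of TPM plus a pseudocount of 1 (trended variance), keeping a gene that reached 1 TPM in 3 libraries or more. The counts went through edgeR 4.0.16 quasi-likelihood fits with TMM scaling and its expression filter, and DESeq2 1.42.0 was an alternative. All groups of a table shared a fit, except with the replicate block in the second cohort, which was fitted on the compared groups alone. Benjamini-Hochberg adjustment ran over all genes of a comparison, the threshold was 0.05, and 95% intervals use the fit's t distribution. For the edgeR fits, the SE in these intervals is the size of the log2 change over the square root of the F statistic. Both fits were also run on simulated data with known changes, and the outcome is not given here. Other pseudocounts, filters and scalings, a replicate block and leaving out each library were tried. In the CNO set, same-numbered libraries of the 2 groups deviated together (correlations 0.119 to 0.244, each above 0.1), so the label numbers were taken to pair them. In no other comparison did every pair pass that limit.

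The 10 members and the lists of 103 pathway genes and cell markers were chosen with earlier results of these data known. The list of other apolipoproteins includes the receptor gene Apobr, and Apoo and Apool, so its counts are not of lipoprotein particle proteins alone. With palmitic acid on knockout cells, its smallest p-values were those of Apobr, Apool and Apoo. Named list genes are among the 3 smallest p-values past the threshold in a list, and Apoe's nearest genes are the 3 with the highest Pearson r. In the second cohort no pair of libraries of the same group agreed within sampling noise.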

Additional observations from a re-analysis of the deposited data

Results flagged for a closer look

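In the second cohort, Lrp1 in KA 2 stood far from the other 3 KA libraries, at 237.9 TPM, while its counts did not. Chance gives such a gap in about 1 in 20 groups. The source of the difference between the authors' TPM and counts for this library was not tested.

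The remaining results are differences between the astrocyte genotypes in the change under a treatment, by a test of the difference itself (knockout change minus wild-type change, log2 scale, limma). For neuronal medium they were Apoe 1.40, Clu 0.96, Apod 1.89, Abca1 0.87, Lpl 0.96 and Lcat 1.15. For oleic acid they were Apoe 1.22, Clu 1.28, Apod 4.77, Apoc1 1.81, Abca1 1.02, Lpl 1.99 and Vldlr -1.09. For palmitic acid they were Apoe -1.50, Clu 0.95, Abca1 -1.57, Abcg1 -1.30, Lpl -2.91, Lcat -1.46, Lrp1 0.52 and Vldlr -2.61, where the size for Lcat is set by the pseudocount because its knockout libraries were listed at 0.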

How the results depend on the processing

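Of the 79 member changes past the threshold, 66 kept their direction and call under every alternative run for them, and of all 2000 combinations of a member change and an alternative, 1899 kept direction and call, 53 changed sign, 39 lost and 9 gained a call. With the replicate block, CNO gave 2 members past the threshold, against 1 without it, and Apoe knockout with KA gave 0, against 1, where Apoe was -4.98 (edgeR, adjusted p = 0.0789). In the second cohort the block was fitted on the compared groups alone, without the other groups of the table. The block and the smaller fit therefore cannot be told apart in that lost call. Replicate numbers of the second cohort do not pair its libraries. The block gave -0.00060 for Lpl and -0.035 for Lrp1 with KA in the second cohort. No paired analysis was possible for the labelled A2aR knockdown because it shares fewer than 2 replicate numbers with KA. With the block the genotype difference of Lcat for oleic acid passed (-0.67; limma, adjusted p = 0.0436) and Apoc1 for oleic acid on wild-type cells did not (-1.04; limma, adjusted p = 0.0514), on numbers that do not pair those libraries, and the block changed no other member call. With median-ratio scaling, Clu was -0.0082 with neuronal medium, Abca1 -0.018 and Lrp1 -0.0093 with medium of knockout neurons, and in knockout cells Lrp1 was -0.0079 with neuronal medium, and Clu 0.21, Apoc1 0.0064, Lrp1 0.32 and Vldlr 0.13 with palmitic acid. The genotype difference of Abcg1 for oleic acid was 0.0049 with that scaling and 0.22 with a pseudocount of 0.1, against -0.02. KA in the first cohort gave 0 to 1 members past the threshold with a library left out. With each library left out in turn, log2 changes that crossed 0 ran for KA in the first cohort Vldlr -0.0069 to 0.88, for CNO Apoc1 -0.40 to 0.083 and Vldlr -0.070 to 0.17, for KA in the second cohort Apoe -0.17 to 0.11, Lrp1 -0.033 to 0.070 and Vldlr -0.013 to 0.10, for Apoe knockout with KA Apoc1 -1.39 to 0.021 and Abcg1 -0.061 to 0.017, for the labelled A2aR knockdown Apoc1 -0.87 to 0.29, Lpl -0.057 to 0.10 and Lcat -0.041 to 0.17. In the same way they ran for neuronal medium on wild-type cells Apoe -0.10 to 0.050 and Clu -0.016 to 0.075, for medium of knockout neurons against untreated Abca1 -0.060 to 0.053, Lcat -0.054 to 0.25 and Lrp1 -0.022 to 0.059, for medium of knockout neurons against neuronal medium Clu -0.014 to 0.077, Abcg1 -0.28 to 0.25 and Vldlr -0.098 to 0.098, for oleic acid on wild-type cells Abcg1 -0.034 to 0.59, for neuronal medium on knockout cells Lrp1 -0.0024 to 0.092. They also crossed 0 for oleic acid on knockout cells Lrp1 -0.068 to 0.14, for palmitic acid on knockout cells Apoc1 -0.42 to 0.044, for the genotype difference for neuronal medium Abcg1 -0.0098 to 0.52, for the genotype difference for oleic acid Abcg1 -0.27 to 0.35.

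Some counts over all genes moved by over 1.5 times. KA in the first cohort called 28 genes, or 44 with a pseudocount of 0.1, 2 with no filter, 2 with the block and 0 to 352 with a library left out. CNO called 571, or 197 with no filter, 928 with the block and 167 to 591 with a library left out. In the second cohort KA called 13 (DESeq2 153, block 2, library left out 9 to 20), Apoe knockout 26 (DESeq2 327, block 0, library left out 15 to 27) and the labelled A2aR knockdown 9 (DESeq2 246, library left out 0 to 12). These second-cohort block counts come from fits of the compared groups alone. Neuronal medium on wild-type cells called 6 (3 with a pseudocount of 0.1, 30 with no filter, 2 with scaling, 0 to 11 with a library left out). Medium of knockout neurons called 243 against untreated (159 with scaling, 117 to 154 with a library left out) and 229 against neuronal medium (128 with a pseudocount of 0.1, 141 with scaling, 105 to 165 with a library left out). The causes were not tested. Depth is known for the second cohort alone, so for members under 5 TPM in the other tables the counting error is unknown. The 3 or 4 libraries in a group limit every comparison.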

Other observations

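In untreated astrocytes Apoe ranked 3487 to 4101 by TPM in knockout libraries and 15 to 17 in wild-type libraries, and it gave 9.08% ± 0.729 and 82.1% ± 0.737 of the summed TPM of Apoe, Clu, Apod and Apoc1 (SD, n = 3 each). That sum was 481 ± 6.76 TPM in knockout and 5698 ± 449 TPM in wild-type cells.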
